A study of Danio rerio with 6 samples.

Results

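The genes described here are 49 zebrafish genes of the inflammatory cytokine and NF-kB response, listed by name. They comprise cytokine ligands, chemokines, NF-kB subunits, inhibitors of the pathway, sensors and adaptors, and enzymes and other effectors. The list was chosen with earlier results of these data known, so its shares of calls are descriptions and no test of the pathway. A member was followed through its curated RefSeq transcript in the count table, and where a gene had several such transcripts the one with the most counts was used. Of the 49 members, 40 had a transcript row, out of 14570 named genes with such a row in the table. The members *il11a*, *il11b*, *cxcl8a*, *cxcl11.1*, *nfkb1*, *relb*, *tnfaip3*, *irak3* and *tlr5a* had none and were not analysed here.

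The libraries came from guts of wild-type (WT) larvae at 5 days post fertilization (dpf), dissected 1 h after injection into the gut and swim bladder. One group received rzIl26, the recombinant zebrafish form of the cytokine IL-26, and the other received bovine serum albumin (BSA) as the control protein. Each group had 3 libraries, labelled as biological replicates, and each library pooled 10 to 15 guts. All larvae were injected and there was no uninjected group, so anything that injection itself did is present in both groups. The question is how far transcripts of this pathway differed between the 2 injected proteins.

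NF-kB is a family of transcription factors that rest in the cytoplasm, held there by inhibitor proteins of the IkB family. Signals from Toll-like receptors, from the IL-1 receptor and from TNF receptors pass through adaptors and ubiquitin ligases to the IkB kinases, which mark the inhibitor for destruction and free the factor to enter the nucleus. Its textbook targets include cytokines, chemokines that draw in neutrophils, prostaglandin synthases, matrix proteases and the inhibitors themselves, which makes the pathway self-limiting. In the gut it is known as a main route by which epithelium and immune cells answer microbes.

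The study also designed oligonucleotides for 2 of the members, to measure them by quantitative PCR in experiments not analysed here. They are shown because the study names them for the best known cytokines of the set, *il1b* and *tnfa*. Their match to the transcripts counted here was not checked. They are written 5′ to 3′ and in lower case throughout.
il1b forward: gagacagacggtgctgttta
il1b reverse: gtaagacggcactgaatcca
tnfa forward: ggccttttcttcaggtggct
tnfa reverse: agcacttgttcctcagtcagt

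The libraries held 15156164 to 22219894 counts. Levels are given as CPM, the counts scaled to a common library total after TMM normalization, in the order of replicates 1, 2 and 3. A level compares 1 transcript between libraries and not different transcripts, since transcript lengths were not used. At this depth a floor of 3 counts corresponded to 0.129 to 0.199 CPM, depending on the library. In bulk tissue, fewer cells of a type and less RNA per cell cannot be told apart.

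Among the members, every difference that passed the test was an increase after rzIl26. Of the 40 members with a row, 33 had enough counts to be tested, and 22 of them (66.7%) were higher at an adjusted p under 0.05 (edgeR's quasi-likelihood test, Benjamini-Hochberg over 10576 rows), against 9.27% of all rows tested. By contrast, 0 were lower, against 9.6% of all rows, and 0 were lower at an unadjusted p under 0.05, with DESeq2 or with limma-voom. The log2 fold change was above 0 in all 33, with a median of 1.09, where the median of all rows was 0.01. Of the 33 tested members, 17 were called higher with a log2 fold change of at least 1, against 2.09% of all rows tested. In 23 of the 33 every rzIl26 library lay above every BSA library, against 18.7% of all rows (39.6% in either direction).

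A filter on low counts can favour transcripts that are high in 1 group. The members *tnfa*, *il6* and *csf3a* reached the test through their rzIl26 libraries. When at least 10 counts were required in every library, these dropped out. The 30 members that remained were all above 0, and 22 were called with a median log2 fold change of 1.09. The 22 calls were the same genes. No called member therefore owed its place to its rzIl26 libraries.

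The roles contributed as follows. Of 9 tested enzymes and effectors 8 were higher, of 4 inhibitors 3, of 4 sensors and adaptors 3, of 6 chemokines 4, of 7 cytokine ligands 3 and of 3 NF-kB subunits 1. The median log2 fold change was 1.65 for the ligands, 1.57 for the enzymes and effectors, 1.03 for the chemokines, 0.87 for the subunits, 0.87 for the inhibitors and 0.81 for the sensors and adaptors. The ligand median is the value of *tnfa* itself, which like *il6* and *csf3a* reached the test through its rzIl26 libraries. That median therefore depends on the filter. These groups of roles are small and their differences were not tested.

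**Figure D1:**
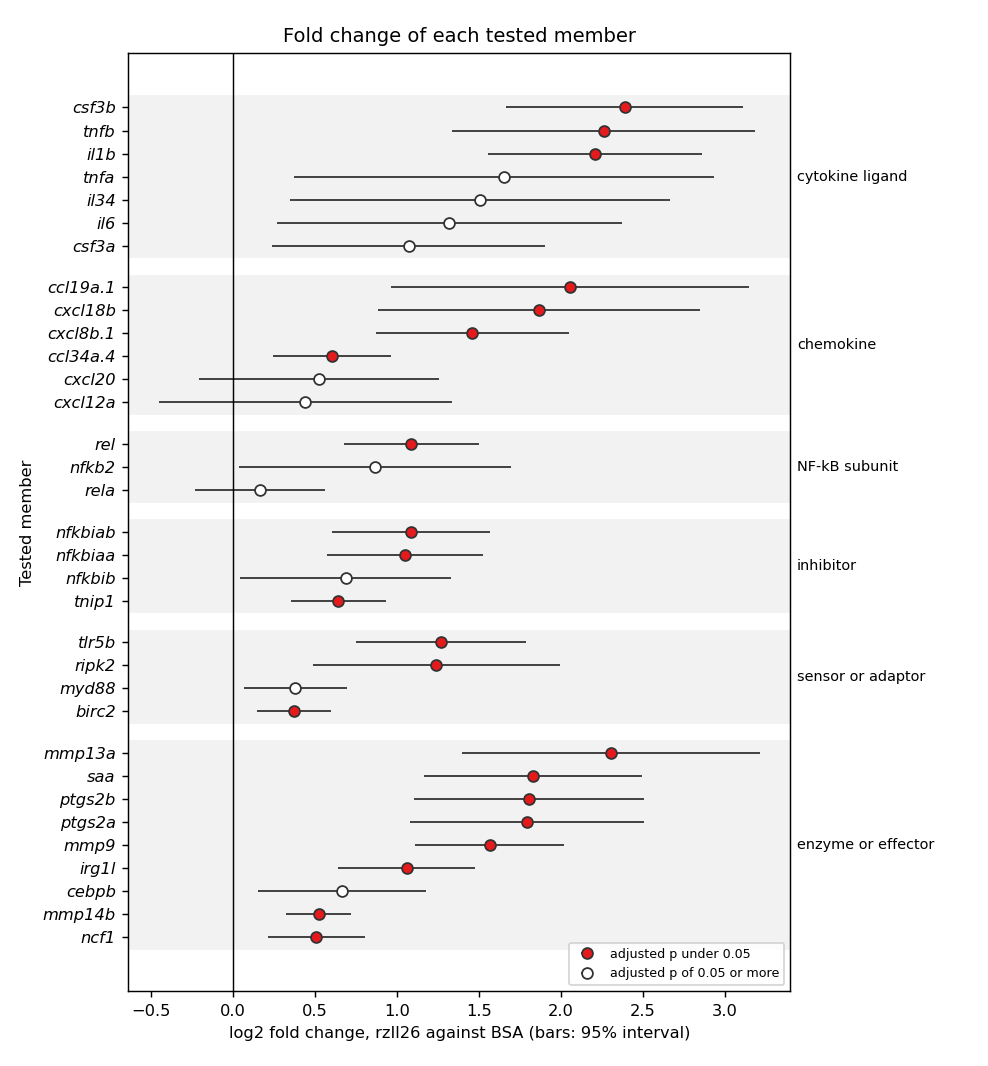
Log2 fold change of rzIl26 against BSA for the 33 tested members, grouped by role, with bars for the 95% interval. Filled points mark the 22 members with an adjusted p under 0.05 and open points the 11 without, and every point lies to the right of 0.

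Of the cytokine ligands *il1b*, *csf3b* and *tnfb* rose, each more than 4-fold, and the other 4 tested ligands did not pass. The pyrogenic cytokine *il1b* had 6.67, 12.02 and 5.01 CPM after BSA and 36.5, 35.7 and 36.2 CPM after rzIl26. Its rzIl26 libraries were nearly equal to each other and far above all BSA libraries, a log2 fold change of 2.21 ± 0.28 (SE, with adjusted p = 0.0057 by edgeR), which is 4.62-fold. The granulocyte colony-stimulating factor gene *csf3b*, whose product drives neutrophil production, had 1.04, 2.06 and 0.878 CPM after BSA and 7.78, 7.04 and 5.603 CPM after rzIl26. Its log2 fold change of 2.39 ± 0.31 (SE, with adjusted p = 0.0059 by edgeR) was the highest of all tested members and ranked 18 among the 10576 rows. The TNF family ligand *tnfb* had 1.87, 1.93 and 0.671 CPM after BSA and 9.26, 4.85 and 7.29 CPM after rzIl26. The groups were apart, with a log2 fold change of 2.26 ± 0.40 (SE, with adjusted p = 0.012 by edgeR).

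The other tested ligands lay above 0 but did not pass. The main TNF gene *tnfa* had few counts, 6, 6 and 14 after BSA and 10, 36 and 44 after rzIl26. At 0.617 CPM, rzIl26 replicate 1 lay below BSA replicate 3 at 0.723 CPM, so the groups overlapped. The log2 fold change of *tnfa* was 1.65 (95% interval 0.37 to 2.94, adjusted p = 0.075 by edgeR). For *il34*, a ligand of the Csf1 receptor that supports macrophages, the levels were 5.26, 17.999 and 6.76 CPM after BSA and 15.4, 36.8 and 31.6 CPM after rzIl26. Here BSA replicate 2 exceeded rzIl26 replicate 1, and the log2 fold change was 1.51 (95% interval 0.35 to 2.66, adjusted p = 0.073 by edgeR). The interleukin *il6* had 0.469, 1.26 and 0.465 CPM after BSA and 1.23, 1.67 and 2.39 CPM after rzIl26, again with BSA replicate 2 above rzIl26 replicate 1. The estimate for *il6* was 1.32 (95% interval 0.27 to 2.37, adjusted p = 0.081 by edgeR). The second granulocyte factor *csf3a* did not overlap between groups, with 0.521, 1.06 and 0.465 CPM after BSA and 1.17, 1.54 and 1.47 CPM after rzIl26, yet its value of 1.07 (95% interval 0.24 to 1.91, adjusted p = 0.075 by edgeR) stayed short of the threshold. The intervals of these 4 ligands span small to large values above 0. They are per gene and not corrected over all rows, so an increase was not shown.

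Of the tested chemokines 4 rose, among them both of the known neutrophil attractants. The Il-8 family gene *cxcl8b.1* had 11.2, 16.1 and 16.7 CPM after BSA and 33.9, 55.6 and 31.3 CPM after rzIl26, with no overlap and a log2 fold change of 1.46 ± 0.25 (SE, with adjusted p = 0.012 by edgeR). The neutrophil attractant *cxcl18b* had 20.7, 60.3 and 21.1 CPM after BSA and 97.8, 145 and 127 CPM after rzIl26. All rzIl26 libraries were higher, although BSA replicate 2 stood well above the other BSA libraries, and the log2 fold change was 1.86 ± 0.42 (SE, with adjusted p = 0.024 by edgeR). The Ccr7 ligand *ccl19a.1*, known in mammals for guiding lymphocytes and dendritic cells, had 1.61, 2.52 and 1.39 CPM after BSA and 3.21, 7.98 and 11.4 CPM after rzIl26. Its groups were apart but its rzIl26 libraries were spread widely, with a log2 fold change of 2.06 ± 0.47 (SE, with adjusted p = 0.025 by edgeR). A smaller rise was seen for *ccl34a.4*, a CC chemokine, from 8.49, 10.2 and 7.38 CPM to 11.4, 13.9 and 14.1 CPM (log2 fold change 0.61, SE 0.15, adjusted p = 0.034 by edgeR).

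The other tested chemokines did not pass. The CXC chemokine *cxcl20* had a log2 fold change of 0.52 (95% interval -0.21 to 1.26, adjusted p = 0.28 by edgeR). The Cxcr4 ligand *cxcl12a*, which guides migrating cells in development, had 0.44 (95% interval -0.45 to 1.33, adjusted p = 0.46). For *cxcl20* the rzIl26 replicate 1 library lay among the BSA libraries, and for *cxcl12a* it was the lowest of all 6. In both the interval includes 0 and a more than 2-fold increase. The calls of 3 chemokines were lost in fits with 1 library less, which have fewer samples. The *cxcl18b* call was lost without BSA replicate 1 (adjusted p = 0.074), BSA replicate 3 (0.074), rzIl26 replicate 2 (0.075) or rzIl26 replicate 3 (0.058). The *ccl19a.1* call was lost without the same libraries (0.088, 0.088, 0.073 and 0.058) and under limma-voom (0.056), and the *ccl34a.4* call without the same libraries as well (0.11, 0.11, 0.11 and 0.089). In those fits the log2 fold changes were 1.60 to 1.84 for *cxcl18b*, 1.64 to 2.01 for *ccl19a.1* and 0.50 to 0.59 for *ccl34a.4*. Numbered names such as *cxcl8b.1*, *ccl19a.1* and *ccl34a.4* mark neighbouring gene copies, and how reads shared by copies were counted is not stated, so their levels are uncertain to that degree.

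**Figure D2:**
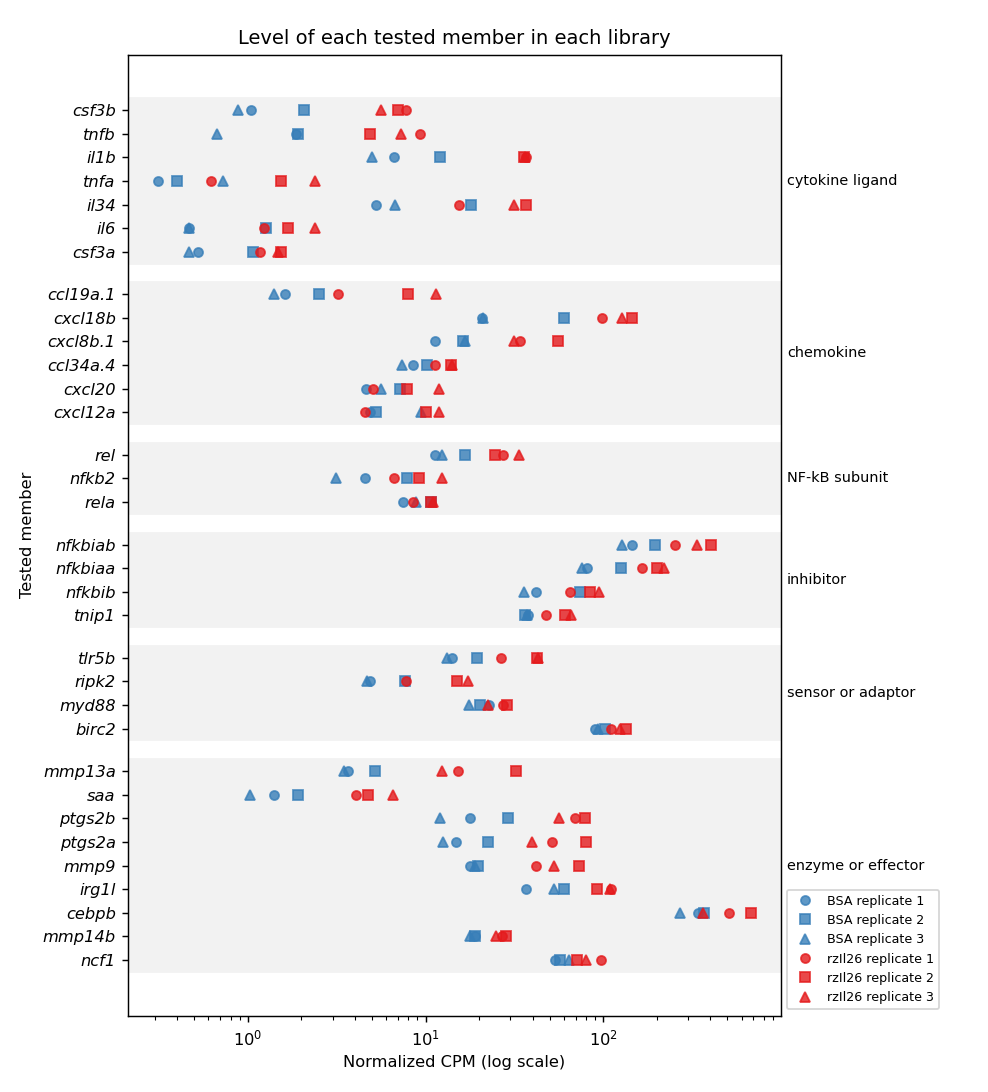
Normalized CPM on a log axis for the 33 tested members in each of the 6 libraries, with BSA in blue and rzIl26 in red and a marker shape per replicate. The colours are apart in 23 members, among them *il1b*, *mmp9* and *saa*, and mixed in members such as *rela* and *cxcl12a*.

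Of the NF-kB subunits with a row, only *rel* passed. The gene *rel*, for the c-Rel subunit that carries a transactivation domain, had 11.2, 16.7 and 12.3 CPM after BSA and 27.2, 24.7 and 33.5 CPM after rzIl26. The groups did not overlap and the log2 fold change was 1.09 ± 0.18 (SE, with adjusted p = 0.011 by edgeR). The gene *rela*, for the p65 subunit of the most common dimer, had 7.50, 10.8 and 8.83 CPM after BSA and 8.52, 10.7 and 10.99 CPM after rzIl26. Its libraries were interleaved, and the interval of its log2 fold change ran from -0.23 to 0.56 around 0.17 (adjusted p = 0.53 by edgeR). The gene *nfkb2*, for the precursor subunit of the non-canonical branch, lay between them at 0.87 (95% interval 0.04 to 1.69, adjusted p = 0.13 by edgeR), with 4.58, 7.90 and 3.15 CPM after BSA and 6.60, 9.18 and 12.3 CPM after rzIl26. Whether the 3 subunits differed from each other was not tested.

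Of the inhibitors of the pathway 3 of 4 rose. The duplicated IkB-alpha genes are the classical feedback inhibitors. The copy *nfkbiaa* had 80.8, 126 and 76.1 CPM after BSA and 165, 199.7 and 219.9 CPM after rzIl26, a log2 fold change of 1.05 ± 0.20 (SE, with adjusted p = 0.016 by edgeR). Its partner *nfkbiab* had 144, 196 and 128 CPM after BSA and 254, 401 and 339 CPM after rzIl26, a log2 fold change of 1.09 ± 0.21 (SE, with adjusted p = 0.015 by edgeR). In both, every rzIl26 library lay above every BSA library. The gene *tnip1*, for a ubiquitin-binding partner of the inhibitor A20, had 37.6, 36.3 and 37.1 CPM after BSA and 47.4, 60.6 and 65.5 CPM after rzIl26, a log2 fold change of 0.64 ± 0.12 (SE, with adjusted p = 0.015 by edgeR). Its BSA values were close together and all lay below rzIl26. The IkB-beta gene *nfkbib* did not pass, at 0.69 (95% interval 0.04 to 1.33, adjusted p = 0.12 by edgeR), and BSA replicate 2 at 74.1 CPM exceeded rzIl26 replicate 1 at 64.9 CPM.

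These inhibitor calls were close to the threshold in the fits that left out 1 library. That of *nfkbiab* was lost without BSA replicate 1 (adjusted p = 0.060) or BSA replicate 3 (0.052), and that of *nfkbiaa* without BSA replicate 1 (0.062), BSA replicate 3 (0.053) or rzIl26 replicate 2 (0.053). The *tnip1* call was lost without BSA replicate 1 (0.057), BSA replicate 2 (0.051), BSA replicate 3 (0.053) or rzIl26 replicate 2 (0.055). Over all alternatives the log2 fold changes stayed between 0.92 and 1.31 for *nfkbiaa*, between 0.92 and 1.28 for *nfkbiab* and between 0.54 and 0.80 for *tnip1*.

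Of the tested sensors and adaptors 3 of 4 rose. The flagellin receptor gene *tlr5b* had 14.1, 19.4 and 13.2 CPM after BSA and 26.5, 42.3 and 43.2 CPM after rzIl26, with no overlap and a log2 fold change of 1.27 ± 0.22 (SE, with adjusted p = 0.012 by edgeR). The kinase gene *ripk2*, which acts below the Nod receptors for bacterial wall fragments, had 4.84, 7.64 and 4.70 CPM after BSA and 7.78, 15.1 and 17.3 CPM after rzIl26. The lowest rzIl26 library just cleared the highest BSA library, and the log2 fold change was 1.24 ± 0.32 (SE, with adjusted p = 0.037 by edgeR). The ubiquitin ligase gene *birc2*, for a component of the TNF receptor complex, had 89.4, 103 and 93.1 CPM after BSA and 111, 134 and 125 CPM after rzIl26, the smallest change of the 22 calls at 0.37 (SE 0.10, adjusted p = 0.036 by edgeR). The shared Toll-like receptor adaptor *myd88* had 22.7, 20.1 and 17.5 CPM after BSA and 27.3, 28.7 and 22.4 CPM after rzIl26, at 0.38 (95% interval 0.07 to 0.69, adjusted p = 0.089 by edgeR). Its estimate was thus as large as that of *birc2*, with more spread between replicates.

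Calls of this group were also lost in fits with 1 library less. The *tlr5b* call was lost without BSA replicate 1 alone (adjusted p = 0.052), at a log2 fold change of 1.20. That of *ripk2* was lost without BSA replicate 1 (0.12), BSA replicate 3 (0.12), rzIl26 replicate 2 (0.11) or rzIl26 replicate 3 (0.096), at log2 fold changes of 1.02 to 1.14. That of *birc2* was lost without any library but rzIl26 replicate 1: 0.13 and 0.057 without BSA replicates 1 and 2, 0.11 without BSA replicate 3, and 0.11 and 0.084 without rzIl26 replicates 2 and 3. The log2 fold changes of *birc2* there were 0.31 to 0.43.

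Of the enzymes and effectors 8 of 9 rose. They include both genes for the inducible prostaglandin synthase Cox-2. The copy *ptgs2a* had 14.8, 22.5 and 12.5 CPM after BSA and 51.7, 80.4 and 39.8 CPM after rzIl26, a log2 fold change of 1.79 ± 0.30 (SE, with adjusted p = 0.012 by edgeR). The copy *ptgs2b* had 17.8, 29.2 and 12.1 CPM after BSA and 69.5, 79.3 and 56.4 CPM after rzIl26, a log2 fold change of 1.80 ± 0.30 (SE, with adjusted p = 0.011 by edgeR). In both, replicate 2 was the highest library of each group, and even BSA replicate 2 was below every rzIl26 library.

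The matrix proteases rose by unequal amounts. The collagenase gene *mmp13a* had 3.65, 5.18 and 3.46 CPM after BSA and 15.2, 32.4 and 12.3 CPM after rzIl26, a log2 fold change of 2.31 ± 0.39 (SE, with adjusted p = 0.011 by edgeR) or 4.94-fold. The gelatinase gene *mmp9* had 17.8, 19.8 and 18.95 CPM after BSA and 41.8, 72.7 and 52.6 CPM after rzIl26, a log2 fold change of 1.57 (SE 0.19) with the lowest adjusted p of the members (0.0054 by edgeR). The membrane-anchored protease gene *mmp14b* had 18.9, 19.1 and 17.8 CPM after BSA and 26.97, 28.2 and 25.02 CPM after rzIl26. Its change was small, 0.52 (SE 0.09, adjusted p = 0.011 by edgeR), but its libraries agreed closely within each group.

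The remaining effectors span acute-phase, metabolic and oxidative functions. The acute-phase protein gene *saa* had 1.41, 1.93 and 1.03 CPM after BSA and 4.07, 4.72 and 6.58 CPM after rzIl26, a log2 fold change of 1.83 ± 0.28 (SE, with adjusted p = 0.0099 by edgeR). The gene *irg1l*, related to the mammalian enzyme that makes itaconate, had 36.7, 60.0 and 52.8 CPM after BSA and 110.4, 91.9 and 109 CPM after rzIl26, a log2 fold change of 1.06 ± 0.18 (SE, with adjusted p = 0.011 by edgeR). Both were fully apart between groups. The NADPH oxidase subunit gene *ncf1*, used by phagocytes, had 53.7, 56.9 and 64.0 CPM after BSA and 96.6, 71.5 and 80.2 CPM after rzIl26, a log2 fold change of 0.51 ± 0.13 (SE, with adjusted p = 0.033 by edgeR). The transcription factor gene *cebpb* had 340.5, 367 and 271 CPM after BSA and 509, 677 and 365 CPM after rzIl26. It did not pass, at 0.67 (95% interval 0.15 to 1.18, adjusted p = 0.074 by edgeR), and rzIl26 replicate 3 lay just below BSA replicate 2. The *ncf1* call was lost in every fit that left out 1 library except the one without rzIl26 replicate 2, with adjusted p of 0.11, 0.094 and 0.053 without BSA replicates 1, 2 and 3, and 0.056 and 0.065 without rzIl26 replicates 1 and 3.

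The 7 members below the filter allow no comparison. The microbicidal nitric oxide synthase genes had 5, 1 and 3 counts after BSA and 5, 8 and 2 after rzIl26 for *nos2a*, and 4, 12 and 9 against 8, 6 and 5 for *nos2b*. The kinase gene *ikbke* had 11, 10 and 5 counts against 6, 5 and 7. The macrophage growth factor gene *csf1a* had 2, 4 and 1 counts against 5, 13 and 3, and the interleukin-12 subunit gene *il12ba* had 2, 2 and 1 against 0, 1 and 1. For *ccl20a.3* and the iron hormone gene *hamp* all 6 libraries held 0 counts. A row at or near 0 does not show a silent gene in this table, because the row of the intestinal gene *fabp2* held at most 1.66 CPM in any library while that of *fabp6* held at least 3064 CPM.

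Of the 22 called members, 12 passed the threshold under all 16 alternatives run, the 6 that each left out 1 library included: *il1b*, *tnfb*, *csf3b*, *cxcl8b.1*, *rel*, *ptgs2a*, *ptgs2b*, *mmp9*, *mmp13a*, *mmp14b*, *irg1l* and *saa*. They take in all 3 called ligands and 7 of the 8 called enzymes and effectors. The other 10 lost the call in at least 1 fit with a library left out. Across all of these fits the highest adjusted p of a called member was 0.13 and its lowest log2 fold change was 0.31. How many of all called rows held under every alternative was not counted, so the 12 are no trait of the members. Calls over all rows also became fewer, from 18.9% to 6.89% without BSA replicate 1.

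Where zebrafish kept 2 copies of a gene, the copies could be compared within each library through their log2 ratio, with 0.5 CPM added. The ratio of *csf3a* to *csf3b* was -0.59, -0.71 and -0.51 after BSA and -2.31, -1.88 and -1.63 after rzIl26. Its mean shifted by -1.33, towards *csf3b*, and every rzIl26 ratio lay below every BSA ratio, with an exact permutation p of 0.1, the smallest that 3 against 3 libraries can give (two-sided, adjusted p = 0.4 over 4 pairs). This ratio rests on few counts of *csf3a*, 10, 16 and 9 after BSA and 19, 36 and 27 after rzIl26. With 2 CPM added in place of 0.5 its shift was -1.07. For *nfkbiaa* against *nfkbiab* the shift was -0.01 (exact permutation p = 1) and for *ptgs2a* against *ptgs2b* it was -0.11 (exact permutation p = 0.5). The *tnfa* to *tnfb* ratio shifted by -1.01 (exact permutation p = 0.6) and rests on the few counts of *tnfa*. With 2 CPM added in place of 0.5 its exact permutation p was 0.1.

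**Figure D3:**
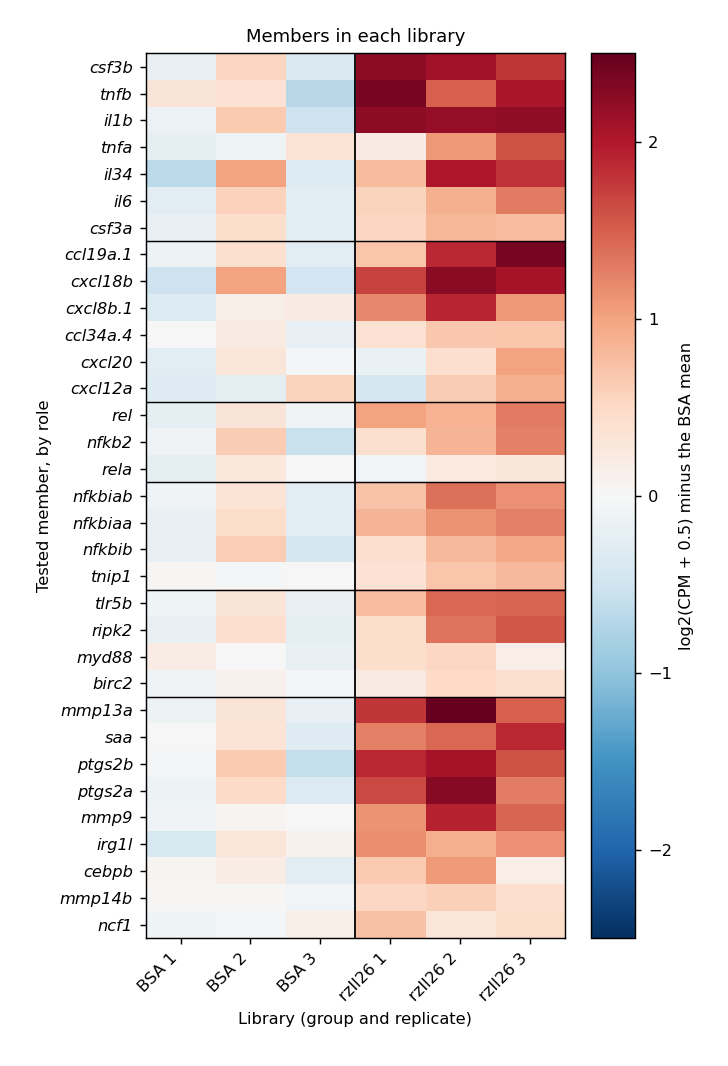
Log2(CPM + 0.5) of each tested member in each library minus its mean over the BSA libraries, with red above and blue below that mean and members ordered by role. The rzIl26 columns are red in nearly every row, BSA replicate 2 is redder than the other BSA columns, and rzIl26 replicate 1 is the palest rzIl26 column in 20 of the 33 rows.

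Members also varied together within groups. The median over the tested members, relative to the BSA mean, was -0.13, 0.33 and -0.23 on the log2 scale in BSA replicates 1 to 3 and 0.72, 1.09 and 1.26 in rzIl26 replicates 1 to 3. Thus BSA replicate 2 was the highest BSA library in 27 of the 33 members, against 3373 of all 10576 rows. Among rzIl26 libraries, replicate 1 was the lowest in 20 of the 33 members, against 3598 of all rows. By role, rzIl26 replicate 3 was highest in 3 of 3 NF-kB subunits, 3 of 4 inhibitors and 4 of 6 chemokines. It was highest in 2 of 4 sensors and adaptors, 2 of 7 ligands and 1 of 9 enzymes and effectors. Over all rows it was highest in 3352. Replicate 2 was highest in 6 of 9 enzymes and effectors and in at most 2 members of each other role, against 3342 of all rows. The roles are small and these counts were not tested. Without BSA replicate 2 the members' median log2 fold change was 1.45 and 23 were called, 19 of them among the 22, against 9.05% of all rows.

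Liver transcripts split the libraries in a similar way. The summed level of 12 liver genes was 3369, 8542 and 3576 CPM in the BSA libraries and 2666, 9579 and 9444 CPM in the rzIl26 libraries, so BSA replicate 2 and rzIl26 replicates 2 and 3 were high. Libraries of like liver level were also set side by side. Among the 3 low libraries (rzIl26 replicate 1 against BSA replicates 1 and 3) 31 of 33 members were above 0 with a median of 0.89, and among the 3 high libraries (rzIl26 replicates 2 and 3 against BSA replicate 2) 33 of 33 with a median of 0.90. Of all 10576 rows 5282 were above 0 in the low and 5287 in the high libraries. The estimates moved in opposite ways for some genes, with *il1b* at 2.56 in the low and 1.54 in the high libraries and *ccl19a.1* at 0.89 and 1.73. A comparison with 1 library on a side has no test. With liver level as a covariate, a fit chosen after the data were seen, 24 members were called, among them all 22, against 17% of all rows. Liver level was also uneven between the groups, high in rzIl26 replicates 2 and 3 but only in replicate 2 of BSA. The part of liver content in the result was not tested.

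Markers of other cells were followed as lists. Of 9 neutrophil genes with a row, the summed level was 121 to 150.0 CPM after BSA and 189 to 242 CPM after rzIl26, without overlap. In that list the neutrophil actin regulator *cfl1l* was higher at 0.94 (adjusted p = 0.017 by edgeR), as was the oxidase subunit gene *cyba* at 0.39 (adjusted p = 0.048). The *cfl1l* call was lost without rzIl26 replicate 2 (0.060), and the *cyba* call in all 6 removals of a library (0.054 to 0.14) and with upper-quartile factors, no filter or the liver covariate (0.054 to 0.063). The lysozyme gene *lyz* was at 1.16 (adjusted p = 0.061), and the defining marker *mpx* held at most 2 counts in a library. Genes of leukocytes in general summed to 123 to 129 CPM after BSA and 103 to 117 CPM after rzIl26 over 5 genes, with 0 of 4 tested called. Most of that sum was *arhgdig*, at 85.8, 86.6 and 93.4 CPM after BSA and 70.8, 67.5 and 82.6 CPM after rzIl26. The log2 fold changes of the 4 tested ran from -0.29 to -0.08. The part of neutrophil content in the rise of *cxcl8b.1*, *mmp9*, *ncf1* and other members was not tested.

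Macrophage genes summed to 8.18 to 10.6 CPM after BSA and 8.11 to 12.4 CPM after rzIl26 over 9 genes, with *mpeg1.1*, *c1qa*, *c1qb* and *c1qc* at 0 in all libraries. Lymphoid genes summed to 6.51 to 7.23 CPM and 4.94 to 8.33 CPM over 11 genes, with *lck* at 0. Exocrine pancreas genes summed to 46112 to 63269 CPM after BSA and 33037 to 58413 CPM after rzIl26, with 0 of 12 tested called. The 8 enterocyte genes, which mark the labelled tissue, summed to 19426 to 19894 CPM after BSA and 15565 to 18397 CPM after rzIl26, with 1 of 8 called lower. That gene, *apoa4b.1*, was a large part of the sum, with means of 9220 CPM after BSA and 6481 CPM after rzIl26. Of the 8 genes, 3 had a log2 fold change above 0 and 5 below. The 10 genes of the epidermis and fin-fold list summed to 58.7 to 156 CPM after BSA and 141 to 286 CPM after rzIl26. Of the 8 tested, 3 were called (37.5%, against 18.9% of all rows). These 3, the fin-fold genes *and1*, *and2* and *and3*, were higher and summed to 5.26, 5.71 and 8.62 CPM after BSA and 40.6, 44.7 and 80.1 CPM after rzIl26. Their log2 fold changes were 1.86, 4.20 and 3.61, which ranked 36, 1 and 3 among the 10576 rows. The largest increase of all rows tested was thus that of *and2*, above every member. The counts of *and3* were 11, 2 and 12 after BSA and 53, 88 and 186 after rzIl26, so it reached the test through its rzIl26 libraries. The calls of these fin-fold genes were not followed through the alternatives. The part of the fin-fold genes, and of the cells they come from, in the rise of the members was not tested.

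**Figure D4:**
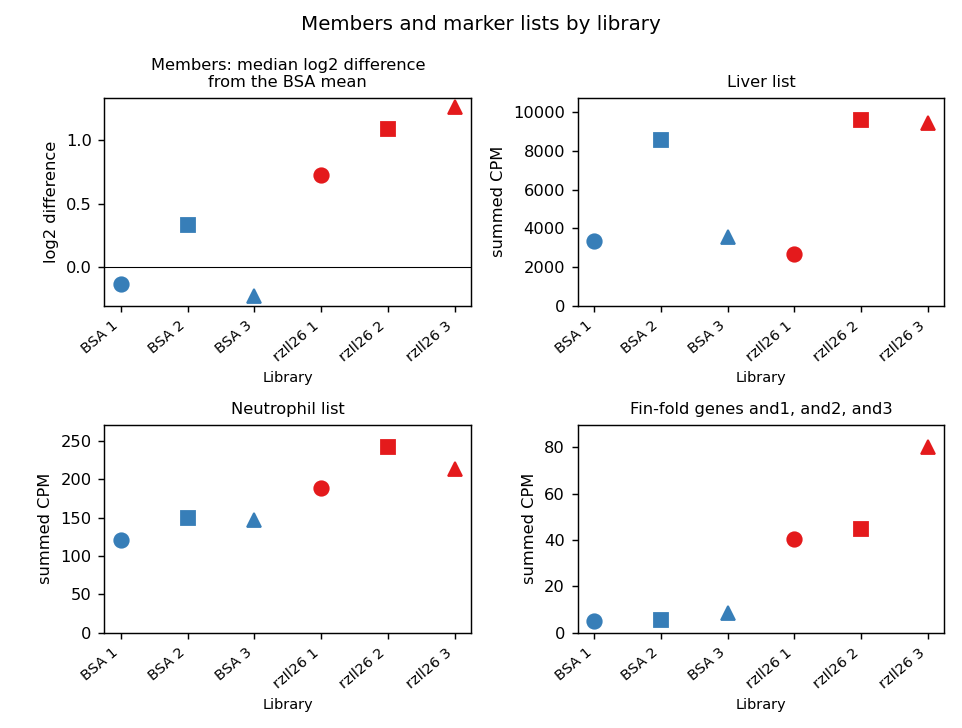
One point per library for the median log2 difference of the 33 tested members from the BSA mean, and for the summed CPM of the liver list, the neutrophil list and the fin-fold genes *and1*, *and2* and *and3*. The liver level splits the libraries across groups, while the neutrophil and fin-fold sums are higher in all 3 rzIl26 libraries.

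Counting both directions, other genes of the pathway were called about as often as rows in general. Higher were 15% of tested signalling components, 18.8% of receptors and 13.6% of other cytokines and chemokines, against 9.27% of all rows. Of 44 signalling components (receptor-proximal adaptors, kinases and ubiquitin enzymes) 24 had a row and 20 were tested. Of these, 3 were higher and 2 were lower, or 25% against 18.9% of all rows, with a median log2 fold change of 0.10. The genes of the core IkB kinase complex did not pass, with *chuk* at 0.06, its scaffold *ikbkg* at 0.06 and *ikbkb* at -0.42 (adjusted p = 0.060 by edgeR). The upstream kinases *map3k7* (0.14) and *irak4* (0.18) and the kinase *tbk1* (-0.14) did not pass either. Other uncalled genes lay further above 0, such as *nfkbie* (0.61, adjusted p = 0.079 by edgeR) and *ripk1l* (0.39, adjusted p = 0.079). At an unadjusted p under 0.05 by edgeR, 6 of the 20 were higher and 4 were lower.

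The 5 that passed work as adaptors or ubiquitin enzymes. The Tbk1-binding adaptor *tank* had 3.80, 4.52 and 4.596 CPM after BSA and 9.13, 10.1 and 11.8 CPM after rzIl26, a log2 fold change of 1.27 ± 0.15 (SE, with adjusted p = 0.0054 by edgeR), and it passed under all 16 alternatives. The ubiquitin ligase gene *traf3* rose by 1.25 (SE 0.32, adjusted p = 0.036) and *traf6*, which acts below the IL-1 and Toll-like receptors, by 0.42 (SE 0.09, adjusted p = 0.024). The A20 adaptor gene *tax1bp1a* was lower at 12.3, 11.4 and 12.6 CPM against 19.5, 17.3 and 19.3 CPM after BSA, a log2 fold change of -0.63 ± 0.10 (SE, with adjusted p = 0.010), and held under all 16 alternatives. The linear ubiquitin complex gene *rbck1* fell by 0.36 on the log2 scale (SE 0.08, adjusted p = 0.023). The calls of *traf3*, *traf6* and *rbck1* did not survive the removal of 1 library in 4, 5 and 4 of 6 fits (adjusted p reaching 0.12, 0.081 and 0.077), and that of *rbck1* also when libraries were scaled by their totals (0.17).

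Receptors, those of the ligands and further Toll-like receptors, were represented by 38 genes, of which 29 had a row and 16 were tested. There were 3 higher and 0 lower, where 9.27% of all rows were higher and 9.6% lower. In either direction 18.8% were called, against 18.9% of all rows. The median was 0.21, and 2 were lower at an unadjusted p under 0.05 by edgeR. No member of this list was called lower by DESeq2 or limma-voom either. The signal transducer *il6st*, shared by the Il-6 family, rose by 0.79 (SE 0.13, adjusted p = 0.011) from 19.9, 27.1 and 25.4 CPM to 38.4, 45.9 and 40.6 CPM. The chemokine receptor gene *cxcr3.3* rose by 1.54 (SE 0.30, adjusted p = 0.016) and the TNF receptor gene *tnfrsf1a* by 0.45 (SE 0.12, adjusted p = 0.036). Of these, *il6st* passed under all 16 alternatives. The *cxcr3.3* call was lost without BSA replicate 1 (0.064), BSA replicate 3 (0.0504) or rzIl26 replicate 2 (0.056), and the *tnfrsf1a* call in 5 of 6 such removals (up to 0.11).

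Other cytokines and chemokines, 55 genes with 45 rows and 22 tested, were likewise mixed, with 3 higher and 1 lower, or 18.2% against 18.9% of all rows, and a median of 0.13. The epithelial cytokine gene *il17c* stood out, with 0.208, 0.863 and 0.0516 CPM after BSA and 2.84, 2.45 and 3.48 CPM after rzIl26. The fitted log2 fold change was 3.06 ± 0.61 (SE, with adjusted p = 0.017 by edgeR), above that of every member, at low levels and with a wide 95% interval of 1.64 to 4.47. The counts of *il17c* were 4, 13 and 1 after BSA and 46, 57 and 64 after rzIl26. It reached the test through its rzIl26 libraries, and it dropped out under the stricter filter on counts in every library. Its size under that filter is therefore not known. The *il17c* call was lost without BSA replicate 1 (0.065). The genes *tgfb1a* (0.92, SE 0.24, adjusted p = 0.037) and *m17*, an Il-6 family cytokine (1.06, SE 0.30, adjusted p = 0.048), were also higher but lost the call in 5 and 6 of the 6 removals of a library (up to 0.11 and 0.13), *m17* also with upper-quartile factors, no filter, DESeq2, limma-voom or the liver covariate (0.053 to 0.082). The counts of *m17* were 16, 11 and 9 after BSA and 27, 29 and 25 after rzIl26. Like *il17c*, *m17* dropped out under the stricter filter, so its size under that filter is not known either. The chemokine gene *cxcl14* was lower, at 49.4, 45.8 and 44.4 CPM against 67.5, 62.6 and 61.0 CPM after BSA (-0.45, SE 0.08, adjusted p = 0.013), under all 16 alternatives. The Il-10 family gene *il22* was at 1.29 (adjusted p = 0.074) and did not pass.

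**Figure D5:**
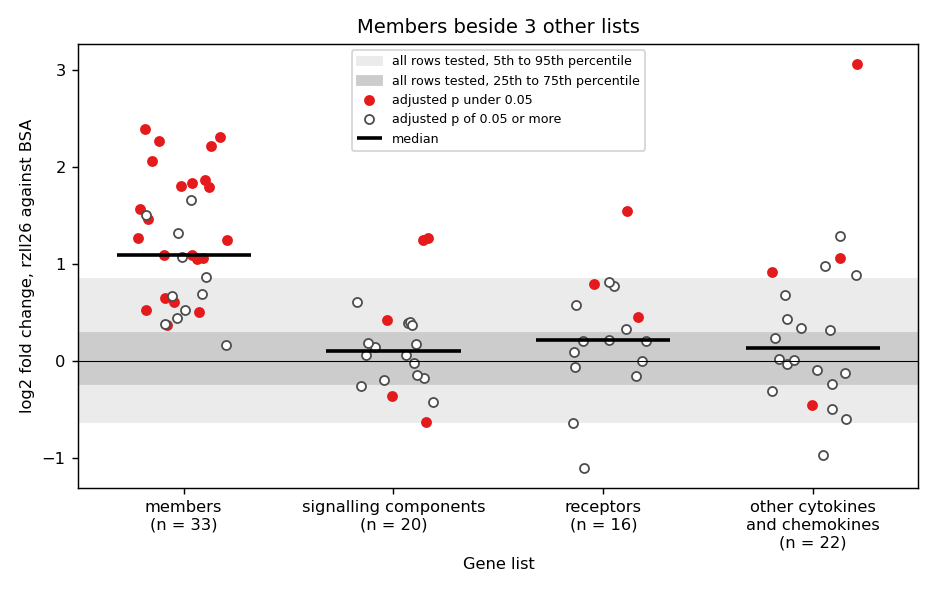
Log2 fold change of rzIl26 against BSA for the 33 tested members and for 20 signalling components, 16 receptors and 22 other cytokines and chemokines, with a bar at each median and grey bands for the middle ranges of all 10576 rows. The members' median lies at 1.09, and those of the other lists at 0.10, 0.21 and 0.13, inside the darker band.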

How the data were processed

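Per the labels, RNA from pooled guts was made into stranded mRNA libraries, sequenced as paired-end reads of 100 bases, checked with FastQC 0.11.8 and aligned to danRer11. The authors deposited 1 table of raw counts per RefSeq transcript with 16134 rows; aligner, counter, annotation release, use of strand and handling of shared reads are not given in the sources used here. Columns were matched to libraries through the library names. Symbols came from a RefSeq table (GRCz12tu, names only), which matched 15776 rows and left 358.

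In R 4.3.3, rows were filtered by filterByExpr (minimum count 10, 10576 kept), scaled by TMM and tested with edgeR 4.0.16 (quasi-likelihood, group as the sole term, Benjamini-Hochberg at 0.05). Fold changes are on the log2 scale. Standard errors and 95% intervals were derived from the F statistic, per gene and without correction over all rows. On simulated counts with 200 of 10576 rows changed by 1 (log2), 144 (72%) were recovered, with 9 false calls. The simulated rows varied independently of each other, so these figures do not give an error rate for members that varied together. Library pairs differed by at least 18.6 in chi-square per degree of freedom, so no library was a copy. Whether the pools came from separate clutches is not given, so p-values measure the spread between these pools.

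Other settings tried were DESeq2 1.42.0, limma-voom (limma 3.58.1), scaling by RLE, by upper quartiles or by library totals, a stricter filter (10 counts in every library) or none, a replicate block, counts summed per gene, leaving out each library and, added after seeing the data, liver level as a covariate. Copies were compared by exact permutation with 0.1, 0.5 or 2 CPM added. The members and lists were chosen with earlier results of these data known. All members are named. Of each other pathway list the called genes with the lowest adjusted p are named, at most 5. Of marker lists every called leukocyte gene is named. The others (*lyz*, *mpx*, *arhgdig*, *fabp2*, *fabp6*, the fin-fold genes, the uncalled kinases, *nfkbie*, *ripk1l* and *il22*) were chosen after their values were seen. The planned motif search in promoters was not run.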

Additional observations from a re-analysis of the deposited data

How the results depend on the processing

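The 33 tested members kept their direction wherever the same 33 were tested, and 22 to 26 were called under the alternatives on all 6 libraries, against 13.7% to 20.6% of all rows. Fits that let in further members had 35 of 38 above 0 without a filter, 33 of 34 without rzIl26 replicate 1 and 33 of 35 without rzIl26 replicate 3. Leaving out 1 library gave 12 to 23 members higher, with 0 lower throughout and a median from 1.02 to 1.45, the highest without BSA replicate 2. The 12 came without BSA replicate 1, when 6.89% of all rows were called, and 13 without BSA replicate 3 (9.15%). In the same fits all rows gave 339 to 874 higher and 398 to 940 lower, signalling components 1 to 3 higher and 1 to 3 lower, receptors 1 to 2 higher, and other cytokines 0 to 2 higher and 1 to 2 lower. These fits have fewer samples. Scaling by library totals moved the median of all rows to 0.17 and gave 1783 rows higher and 400 lower, 6 signalling components higher and 1 lower, and 6 other cytokines higher. Requiring 10 counts in every library left 1 other cytokine higher, since fewer genes were tested.

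Of the 11 members not called, 8 passed under at least 1 alternative, among them *tnfa* with DESeq2 (0.034), with the replicate block (0.032) and without rzIl26 replicate 1 (0.026), and *cebpb* with DESeq2 (0.011). The members *cxcl20*, *cxcl12a* and *rela* passed under none. With the replicate block 25 members were higher (16.3% of all rows were called), 21 of them among the 22, and *ncf1* was lost (0.0502), as were *tnfrsf1a* (0.054), *m17* (0.066) and *cyba* (0.069) of the other lists. Whether equal numbers pair the libraries was not settled. Deviations from the group means correlated at 0.31, 0.11 and 0.0077 for equal numbers and at -0.25 to 0.19 for unequal ones. BSA replicate 2 went best with rzIl26 replicate 3 (0.19). The members *tnfa*, *il6* and *csf3a* fell short of 10 counts in at least 1 library, and 7 members had too few counts to be tested. The planned motif search was not run.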
